A study of Thunnus thynnus with 30 samples.

Results

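Larvae of the Atlantic bluefin tuna, Thunnus thynnus, that were fed medium DHA were compared, as whole animals, with larvae fed low DHA at 5 days post hatch (dph). The libraries were chosen by their labels: 3 of medium DHA (replicates 1 to 3) and 3 of low DHA (replicates 1 to 3), 6 of the 26 libraries in the count table. Docosahexaenoic acid (DHA) reached the larvae through rotifers (Brachionus rotundiformis), which held 2.0 mg DHA per g dry weight in the low group, 3.6 mg in the medium group and 10.9 mg in the high group. All groups were labelled wild type, and ate these rotifers from day 2 to day 15. Per the labels there were 3 tanks per diet, but which tank a library came from, and from how many larvae, is not given. If libraries of a group did not come from separate tanks, p-values measure only the spread between sampled libraries. The comparison asked how gene expression in first-feeding larvae differed between the lower and the middle level of DHA. High DHA at 5 dph (2 libraries, replicates 2 and 3) and the medium and low groups at 10 dph (3 libraries each) are used below for comparison.

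DHA is a long-chain omega-3 fatty acid that fish obtain mainly from the diet and build into the membranes of brain, retina and muscle. Marine fish make little of it themselves, so live prey such as rotifers are enriched with it. First-feeding tuna larvae grow fast, and their RNA comes from all organs together. In such whole larvae, fewer cells of a type and less RNA per cell cannot be told apart. Of 28 organ markers looked for, 21 had a row, and all 11 organs were represented, at 1.89 to 15500 CPM (counts scaled to a common library size).

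The table held 7295 rows named by gene, of which 7292 were tested, and the 6 libraries held 12805866 to 18726093 counts. Low DHA libraries resembled each other closely, while medium libraries stood apart from one another. On the first principal component of the 8 libraries at 5 dph, low DHA scored -11.6, -15.3 and -14.1. Medium DHA scored 14.4, 32.4 and 1.03, and high DHA scored -3.81 and -3.00. Medium replicate 2 stood farthest from low DHA and medium replicate 3 nearest to it. The TMM scaling factor was 1.05, 1.08 and 1.06 in low DHA and 0.909, 0.808 and 1.00 in medium DHA. A length score was taken as the mean log2 CPM of 56 genes known to be very long minus that of 179 short ones. The short genes include ribosomal protein genes such as rps29 and the respiratory gene NDUFS5, so the score is partly built from genes described below. It was -2.14, -1.84 and -1.86 in low DHA and -2.97, -3.27 and -2.13 in medium DHA, a difference of -0.85. Medium replicate 3 lay within the low DHA range on this score, and the exact two-sided permutation test gave p = 0.2, where 3 against 3 libraries allow no less than 0.1. The short list also holds low-count ribosomal rows, described below as nearly absent from other low DHA libraries. All rows of that kind summed to 273, 224 and 186 CPM in low DHA. They summed to 344, 259 and 77.7 CPM in medium DHA. In medium replicate 3 short genes averaged 7.517 log2 CPM, below 7.726, 7.544 and 7.559 in low DHA. Its very long genes averaged 5.386, below low DHA at 5.59, 5.708 and 5.701. The share of nearly absent rows in the overlap was not tested. With ribosomal protein genes taken off the short list the score was -2.305, -2.053 and -2.13 in low and -3.089, -3.466 and -2.634 in medium DHA. On that version the groups did not overlap, with exact p = 0.1 by the same test. Ribosomal protein genes took 15.3, 14.1 and 14.6% of counts in low DHA and 18.4, 20.9 and 16.2% in medium DHA, with no overlap and exact p = 0.1.

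**Figure D1:**
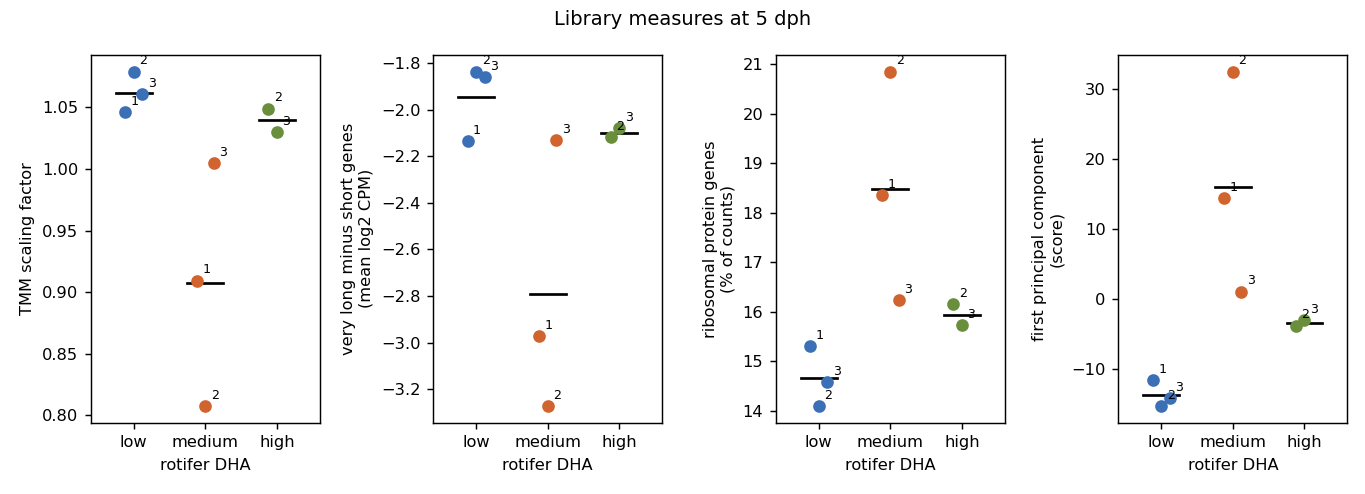
Library measures at 5 dph for low, medium and high rotifer DHA: the TMM scaling factor, the length score (mean log2 CPM of very long minus short genes), the percentage of counts in ribosomal protein genes and the score on the first principal component. Points are libraries with their replicate number and bars are group means; medium replicate 2 stands farthest from low DHA in all 4 panels.

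Medium DHA larvae differed from low DHA larvae in 1980 genes, 27.2% of those tested, by edgeR's quasi-likelihood test at a Benjamini-Hochberg adjusted p under 0.05. Of these, 1220 were higher (16.7%) and 760 were lower (10.4%). Most differences were below 2-fold: the median size was 0.42 on the log2 scale among rises and 0.54 among falls, and 7 rises and 68 falls passed 2-fold. Groups did not overlap in 91.6% of rises and 96.3% of falls, against 45.7% of all genes tested. Medium replicate 2 held the most extreme medium value in 89.8% of rises and 87.1% of falls. Without that library 0 genes passed by edgeR and 1720 had an unadjusted p under 0.05. All 1980 genes kept their direction without it, with a median log2 fold change of 0.29 among rises and -0.43 among falls. The kept libraries had also served to call these genes, so the kept direction is no separate check. Leaving out low replicate 1, 2 or 3 gave 1234, 937 and 967 calls. Fitting the 6 libraries alone, where the spread is not shared with the other groups, gave 854 calls, 185 higher and 669 lower. The length score used as a covariate kept its nearly absent ribosomal rows. Once the length score entered the edgeR fit 0 genes passed, and 539 had an unadjusted p under 0.05. List medians with the length score in the fit are given below for some of the lists. Among the others, the median went from 0.196 to 0.00176 in fatty acid oxidation, from -0.128 to 0.0393 in clock genes and from -0.229 to -0.252 in inner ear genes.

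**Figure D2:**
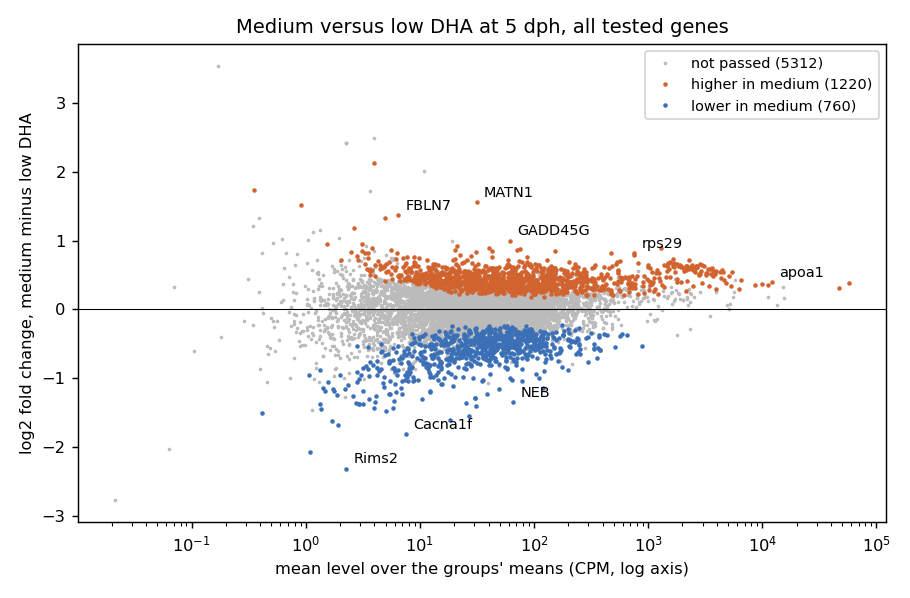
Log2 fold change, medium minus low DHA at 5 dph, against the mean of the groups' levels in CPM (log axis) for every tested gene. Orange points are the 1220 genes that passed and were higher in medium DHA, blue points the 760 that were lower, grey points the rest. Among the genes that passed, 68 falls and 7 rises exceeded 2-fold.

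The largest rises are given among calls with a mean of at least 5 CPM over the 6 libraries whose groups did not overlap. GADD45G, a growth arrest and DNA damage gene, stood at 35.4, 40.8 and 46.3 CPM in low and 98.8, 99.4 and 46.5 CPM in medium DHA, which is 1.00 ± 0.23 as a log2 fold change with its SE (adjusted p = 0.0067). Its medium replicate 3 lay just above the highest low DHA library. FBLN7, a fibulin of the extracellular matrix, had the largest of these, from 3.85, 3.55 and 3.40 to 4.46, 7.09 and 16.3 CPM (1.37 ± 0.36; adjusted p = 0.011), and without medium replicate 3, its highest library, the value was 0.67 and did not pass. Rbx1, the RING subunit of cullin ubiquitin ligases, rose from 51.7, 49.7 and 48.9 to 81.9, 119 and 72.0 CPM (0.86 ± 0.15; adjusted p = 0.0056). ldhba, a lactate dehydrogenase B, rose from 23.2, 21.4 and 22.5 to 44.0, 43.6 and 32.1 CPM (0.83 ± 0.13; adjusted p = 0.0056). Both were clear of the low DHA range in every medium library, as the choice of these genes required. Others among the 12 largest rises were KLHL34, GM1, RPL7, RPL7AB, bcdin3d, Rpl3 and crygna, at log2 fold changes of 0.85 to 0.92. Without medium replicate 2 none of these passed.

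Among calls with a mean of at least 5 CPM over the 6 libraries whose groups did not overlap, the largest fall was in Cacna1f, a calcium channel of photoreceptor synapses. It fell from 10.4, 11.5 and 13.7 CPM in low to 5.17, 1.96 and 2.88 CPM in medium DHA (-1.81 ± 0.42; adjusted p = 0.0066). PCDHGC3, a protocadherin of neuronal contacts, fell from 25.4, 28.5 and 28.3 to 10.7, 6.71 and 9.42 CPM (-1.61 ± 0.33; adjusted p = 0.0056). In both genes every medium library lay below every low one, as the choice of these genes required. Medium replicate 3 lay below medium replicate 1 in both. NEB, nebulin of the thin filament, fell by 1.34 on the log2 scale. Others among the 12 largest falls were Chl1, CHRM4, Kcnc2, CACNA1C, SCN8A, PURG and cyp26a1, at -1.29 to -1.47. None of these passed without medium replicate 2. Sfpq, a splicing and paraspeckle protein, was among the falls with the smallest p, with 197, 208 and 212 CPM in low against 146, 111 and 145 CPM in medium DHA (-0.62 ± 0.11; adjusted p = 0.0056).

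Genes for making protein rose together. Ribosomal protein genes encode the structural proteins of the cytosolic ribosome. Of 115, 79 rose (68.7%, against 16.7% of all genes) and 0 fell (against 10.4%). Their median log2 fold change was 0.56, against 0.04 over all genes. rps29, of the small subunit, stood at 582, 508 and 558 CPM in low and 954, 1214 and 738 CPM in medium DHA (0.82 ± 0.13; adjusted p = 0.0056). rpl30, of the large subunit, rose from 650, 581 and 649 to 971, 1244 and 791 CPM (0.68 ± 0.12; adjusted p = 0.0056). Every medium library exceeded every low one in both genes, with replicate 2 highest and replicate 3 lowest. Groups did not overlap in 91.6% of all rises. The 36 ribosomal names that did not pass were low-count rows that were nearly absent from low DHA libraries at 10 dph, and the other 79 all rose, by 0.35 to 0.88. Those 36 belong to 72 rows with the same pattern at 10 dph, which summed to 273, 224 and 186 CPM in low and 344, 259 and 77.7 CPM in medium DHA at 5 dph. At 5 dph 0 of the 72 passed by edgeR or DESeq2, and 2 had an unadjusted p under 0.05.

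Mitochondrial ribosomal proteins translate the few proteins encoded in mitochondrial DNA. They rose in 45 of 52 (86.5%, against 16.7% of all genes) and fell in 0 (median 0.43). MRPL32 was among the genes with the smallest p, at 37.2, 35.0 and 36.2 CPM in low against 53.0, 64.2 and 46.7 CPM in medium DHA (0.59 ± 0.10; adjusted p = 0.0056). Ribosome assembly genes rose in 27 of 44 (61.4%, median 0.31) and translation factors and tRNA synthetases in 37 of 78 (47.4%, median 0.25). Each had 0 falls, against 10.4% of all genes. rrp15, which acts in ribosomal RNA processing, rose from 40.3, 38.6 and 36.0 to 55.3, 64.7 and 51.9 CPM (0.58 ± 0.10; adjusted p = 0.0056). NOP56, a core protein of box C/D small nucleolar particles, and EIF3F, a subunit of initiation factor 3, rose by 0.45 ± 0.10 and 0.57 ± 0.12. Without medium replicate 2 the medians were 0.36 for cytosolic ribosomal, 0.30 for mitochondrial ribosomal, 0.26 for assembly and 0.17 for translation genes, and no member of the 4 lists passed. With the 6 libraries fitted alone 7, 7, 8 and 2 members passed. Leaving out 1 low DHA library left 75 to 78, 34 to 39, 15 to 18 and 22 or 23. With the length score in the fit the medians were 0.16, 0.18, 0.17 and 0.09, and 0 members passed. Ribosomal protein genes such as rps29 and rpl30 are themselves among the short genes of that score, so it is not independent of their list. The nearly absent ribosomal rows are in the score too. With the score in the fit their median was -1.45, against 0.189 in the other ribosomal rows.

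Nuclear genes of the respiratory chain, which carries electrons and makes ATP in mitochondria, rose in 66 of 69 (95.7%, against 16.7% of all genes). They fell in 0, with a median of 0.48. NDUFS5, of complex I, stood at 70.2, 63.3 and 65.5 CPM in low and 109, 129 and 84.5 CPM in medium DHA (0.69 ± 0.13; adjusted p = 0.0056). Cox7c, of cytochrome c oxidase, rose from 275, 248 and 272 to 394, 518 and 329 CPM (0.64 ± 0.12; adjusted p = 0.0056). Both were above low DHA in all 3 medium libraries, and groups did not overlap in 91.6% of all rises. The 2 mitochondrially encoded genes with rows rose less, MT-ND5 by 0.39 ± 0.11 and mt-co1 by 0.31 ± 0.10, and mt-co1 overlapped between groups. In fatty acid oxidation, which feeds the chain, 2 of 18 rose (11.1%, against 16.7% of all genes) and 2 fell (11.1%, against 10.4%). Hadh and Etfb, enzymes of this pathway, rose by 0.41 ± 0.11 and 0.31 ± 0.09. CPT1A, which admits fatty acids to mitochondria, and PPARA, a transcription factor of this pathway, fell by 0.30 and 0.33. The oxidation falls numbered 1 without low replicate 1 and 0 without low replicate 2 or 3. Its rises numbered 1 without low replicate 3, 7 without medium replicate 3, and 0 without medium replicate 2 or with the 6 libraries alone. The mitochondrially encoded rises numbered 0 or 1 without any 1 low DHA library or medium replicate 1. The median of the nuclear list was 0.17 with the length score in the fit and 0.31 without medium replicate 2, where 0 of 69 passed, and 10 of 69 passed with the 6 libraries fitted alone. NDUFS5 of this list is also among the short genes of that score.

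Proteasome genes, for the complex that degrades ubiquitin-tagged proteins, rose in 31 of 40 (77.5%, against 16.7% of all genes), with a median of 0.50. psmb3 of the catalytic core rose from 112, 107 and 103 to 162, 195 and 129 CPM (0.60 ± 0.12; adjusted p = 0.0056), and Psmc1 of the regulatory particle by 0.47 ± 0.10. The 1 member that fell was NFE2L1, a transcription factor that activates proteasome genes, from 90.6, 95.5 and 103 to 48.9, 64.5 and 64.0 CPM (-0.71 ± 0.13; adjusted p = 0.0056). Chaperones rose in 10 of 35 (28.6%, against 16.7% of all genes) with 0 falls. The 3 with the smallest p were CCT6, CCT5 and TCP1, subunits of the chaperonin that folds actin and tubulin, at 0.39 to 0.44. hsp90ab1, a constitutive HSP90, rose by 0.34 ± 0.09. Chaperone rises numbered 4 to 6 without 1 low DHA library, and the 6 libraries fitted alone gave 1 rise and 2 falls. Without medium replicate 2 the proteasome median was 0.34 and 0 members of either list passed. With the length score in the fit the medians were 0.17 for proteasome and 0.05 for chaperone genes, and 8 proteasome rises passed with the 6 libraries fitted alone.

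Ion channels and transmitter receptors, which set the excitability of neurons and muscle, went the other way, with a median of -0.44. Of 127, 70 fell (55.1%, against 10.4% of all genes) and 1 rose (0.787%, against 16.7%). Kcnc2, a potassium channel of fast-firing neurons, stood at 44.5, 45.0 and 46.4 CPM in low and 22.2, 13.2 and 15.7 CPM in medium DHA (-1.40 ± 0.29; adjusted p = 0.0056). Gria3, an AMPA glutamate receptor, fell from 156, 174 and 165 to 95.7, 45.3 and 83.3 CPM (-1.14 ± 0.25; adjusted p = 0.0056). GABRA3, a subunit of the inhibitory GABA receptor, fell by 0.68 ± 0.15. Groups were separate in all 3 genes, as in 96.3% of all falls. Neuron and synapse genes fell in 25 of 44 (56.8%) and rose in 1 (2.27%), with a median of -0.40. Map2, a microtubule protein of dendrites, fell from 8.89, 10.4 and 9.24 to 3.99, 3.40 and 5.46 CPM (-1.14 ± 0.22; adjusted p = 0.0056). Rims2, of the presynaptic release site, was at 3.30, 4.20 and 3.94 CPM in low and 0.705, 0.302 and 1.20 CPM in medium DHA (-2.32 ± 0.49; adjusted p = 0.0056). INA, a neuronal intermediate filament, was the 1 that rose, from 68.1, 72.1 and 75.6 to 110, 130 and 102 CPM (0.66 ± 0.13; adjusted p = 0.0056).

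Very long genes fell in 24 of 56 (42.9%, against 10.4% of all genes) and rose in 0 (median -0.41). In contrast, short genes rose in 141 of 179 (78.8%, against 16.7%) and fell in 0 (median 0.53). These 2 lists are the ones the length score is made of. Of the 127 channel genes 7, and of the 44 neuron genes 4, are also on the very long list. The short list shares members with the ribosomal protein and nuclear respiratory lists above. Its rises are therefore in part the same rises and no separate result, and the number shared was not counted. Without medium replicate 2 the medians were -0.35 for channels, -0.28 for neuron genes and -0.36 for very long genes, and 0 members passed. With the length score in the fit the medians were -0.11, -0.06 and -0.05. Fitted alone, the 6 libraries gave 59, 20 and 21 falls. Leaving out 1 low DHA library gave 30 to 47, 9 to 16 and 9 to 18 falls, and leaving out medium replicate 1 gave 67, 23 and 15.

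**Figure D3:**
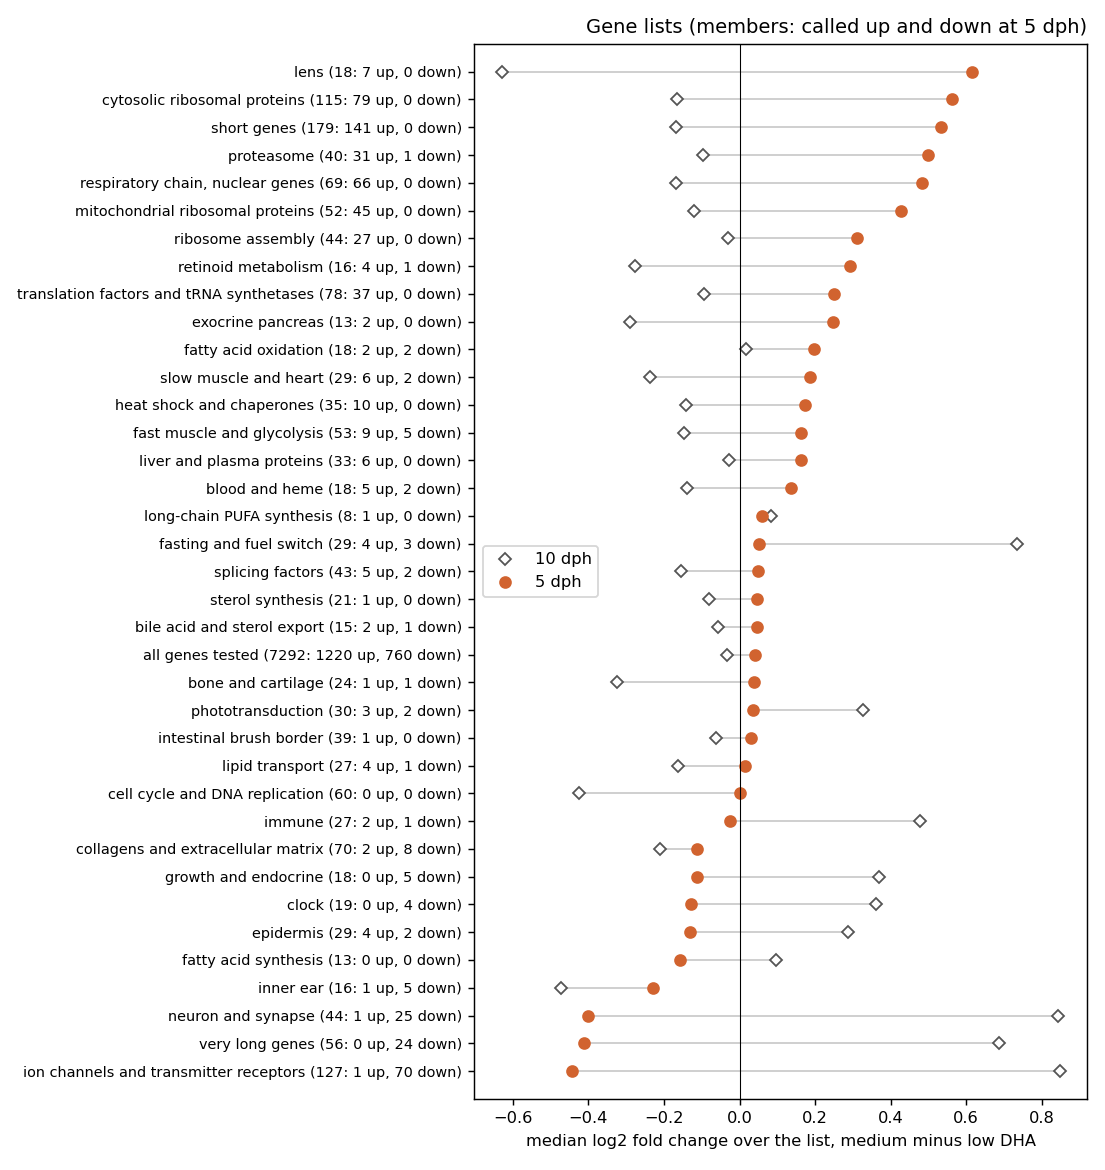
Median log2 fold change, medium minus low DHA, for each gene list at 5 dph (filled circles) and 10 dph (open diamonds). The number of members and how many passed higher or lower at 5 dph stand beside each name; protein-making, respiratory and proteasome lists are above 0 at 5 dph, and channel, neuron and very long lists below 0.

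Of 53 genes of fast muscle and glycolysis 9 rose (17%) and 5 fell (9.43%), shares near those of all genes, 16.7 and 10.4%. The glycolytic enzymes tpi1b and Pgk1 rose, tpi1b from 1432, 1351 and 1394 to 1934, 2391 and 1744 CPM (0.54 ± 0.12; adjusted p = 0.0057) and Pgk1 by 0.41 ± 0.10. RYR1, the calcium release channel of skeletal muscle, fell from 100.2, 109 and 115 to 59.5, 60.2 and 76.6 CPM (-0.72 ± 0.13; adjusted p = 0.0056), and XIRP2, an actin-binding protein of the sarcomere, by 0.71 ± 0.16. In slow muscle and heart 6 of 29 rose (20.7%) and 2 fell (6.9%). MYH7, slow myosin heavy chain, rose from 1020, 1016 and 1000.4 to 1498, 1644 and 1257 CPM (0.54 ± 0.15; adjusted p = 0.013), TNNC1, slow troponin C, by 0.48 ± 0.12 and TPM3, a slow tropomyosin, by 0.35 ± 0.11. RYR2, the release channel of heart, fell by 0.59 ± 0.14. Of the 53 fast muscle and glycolysis genes, 6 are also on the very long list, RYR1 among them, and RYR2 is on it too. Without medium replicate 2 no gene of either list passed, and the medians were 0.07 for the fast and 0.09 for the slow list, where all 6 libraries had given 0.16 and 0.19. Leaving out 1 low DHA library left 2 to 6 fast and 2 to 4 slow rises, and 2 or 3 fast falls. The 6 libraries fitted alone gave 0 fast and 1 slow rise, and 5 fast and 1 slow fall. With the length score in the fit the medians were 0.03 and 0.06.

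Lens genes had the highest list median, 0.62, with 7 of 18 rising (38.9%, against 16.7% of all genes) and 0 falling. crygna, a gamma crystallin, stood at 93.6, 95.3 and 137 CPM in low and 201, 234 and 152 CPM in medium DHA (0.85 ± 0.21; adjusted p = 0.0080). Lim2, a lens fibre membrane protein, rose from 136, 138 and 186 to 260, 294 and 191 CPM (0.70 ± 0.17; adjusted p = 0.0079). In both, low replicate 3 was the highest low library and medium replicate 3 the lowest medium one, close together. Rows named crygnb and LIM2 rose by 0.80 ± 0.24 and 0.62 ± 0.17, and in crygnb the groups overlapped. The number of lens rises was 10 without low replicate 3, 2 without low replicate 2, 3 without low replicate 1 or medium replicate 1 and 0 without medium replicate 2 (median 0.55). It was 3 with the 6 libraries fitted alone, and the median was 0.38 with the length score in the fit.

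In the light-sensing cascade of photoreceptors 3 of 30 genes rose and 2 fell, a share below the 27.2% of all genes. PDE6H, the inhibitory subunit of cone phosphodiesterase, stood at 1879, 1841 and 1944 CPM in low and 2287, 3260 and 2001 CPM in medium DHA (0.41 ± 0.14; adjusted p = 0.031). Cnga3, the cone channel opened by cyclic GMP, rose by 0.33 ± 0.09 and ABCA4, a retinoid transporter of outer segments, fell by 0.28 ± 0.10. Of 16 inner ear genes 5 fell (31.2%, against 10.4% of all genes) and 1 rose (6.25%, against 16.7%). otof, otoferlin of the hair cell synapse, fell from 52.9, 56.2 and 52.1 to 34.8, 22.2 and 35.3 CPM (-0.80 ± 0.18; adjusted p = 0.0061). Otol1, an otolith protein, fell from 16.0, 16.8 and 12.6 to 6.05, 9.05 and 9.84 CPM (-0.87 ± 0.21; adjusted p = 0.0079), and Tecta, of the tectorial membrane, by 0.71 ± 0.21. Each kept its groups apart, as did 96.3% of all falls. Leaving out any 1 of the other libraries but medium replicate 3 left 1 photoreceptor rise and 0 falls, and the ear falls numbered 3 without low or medium replicate 1. Without medium replicate 2 no gene of the retina or ear list passed.

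Lipid handling was described by 4 lists. Among 8 genes that lengthen and desaturate polyunsaturated fatty acids 1 rose (12.5%, against 16.7% of all genes). This was hacd3, a dehydratase of the elongation cycle, from 24.8, 26.9 and 26.2 to 35.1, 38.5 and 29.7 CPM (0.40 ± 0.11, adjusted p = 0.00995). The list median was 0.06. In fatty acid synthesis 0 of 13 passed by edgeR or DESeq2, where 27.2% of all genes passed by edgeR, and 1 had an unadjusted p under 0.05. The smallest p there belonged to 2 rows named for the same elongase, Elovl6 at -0.69 ± 0.32 (adjusted p = 0.11) and elovl6 at 0.32 ± 0.16 (adjusted p = 0.13). Sterol synthesis had 1 rise among 21 (4.76%, against 16.7% of all genes), Hsd17b7 at 0.34 ± 0.12 (adjusted p = 0.038). That call was lost under RLE scaling, with the 6 libraries alone, and without any 1 low DHA library or medium replicate 1. In lipid transport 4 of 27 rose (14.8%, against 16.7% of all genes) and 1 fell (3.7%, against 10.4%). FABP7, a fatty acid binding protein of brain, rose from 206, 178 and 185 to 260, 336 and 223 CPM (0.52 ± 0.13; adjusted p = 0.0078). apoa1, the main protein of high-density lipoprotein, rose from 11123, 9998 and 10351 to 14751, 15420 and 11367 CPM (0.40 ± 0.11; adjusted p = 0.015), and Abca1, which loads cholesterol onto it, fell by 0.43 ± 0.13. Transport rises numbered 1 without low replicate 2 or 3, 2 without medium replicate 1 or under RLE scaling and 0 with the 6 libraries alone, and none of these genes passed without medium replicate 2.

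Liver and plasma protein genes rose in 6 of 33 (18.2%, near the 16.7% of all genes) and fell in 0. hpd, which breaks down tyrosine, had the smallest p of all genes: 90.8, 103 and 99.6 CPM in low against 164, 178 and 141 CPM in medium DHA (0.72 ± 0.10; adjusted p = 0.0038). HGD, which acts later in the same pathway, rose by 0.35 ± 0.11, AGXT, a peroxisomal aminotransferase, by 0.37 ± 0.12 and APOH, a plasma glycoprotein, by 0.39 ± 0.11. The medium libraries of APOH, 299, 291 and 280 CPM, lay close together and above 220, 222 and 220 CPM in low DHA. Of 15 bile acid and sterol export genes 2 rose (13.3%, against 16.7% of all genes) and 1 fell (6.67%, against 10.4%). SLC10A1, the bile acid importer of liver cells, rose by 0.44 ± 0.13 and NR0B2, a receptor that represses bile acid synthesis, fell by 0.82 ± 0.27. Rises of this list numbered 0 with the 6 libraries alone and without low replicate 3 or medium replicate 1. The NR0B2 call was lost without low replicate 1 or 2 or medium replicate 1. In exocrine pancreas 2 of 13 rose (15.4%, against 16.7% of all genes) and 0 fell. They were CELA2A, an elastase, at 0.34 ± 0.12 and ERP27, a chaperone, at 0.44 ± 0.16, and in both medium replicate 3 lay within the low DHA range. Both calls were lost under RLE scaling, with the 6 libraries alone, and without any 1 low DHA library or medium replicate 1. Brush border genes had 1 rise in 39 (2.56%, against 16.7% of all genes), FABP6 (0.41 ± 0.15, groups overlapping). It was lost under RLE scaling, with the 6 libraries alone, and without low replicate 2 or 3 or medium replicate 1. In blood 5 of 18 rose (27.8%, against 16.7% of all genes) and 2 fell (11.1%, against 10.4%). Among the rises was hbb, a beta globin, from 834, 745 and 779 to 999.6, 1690 and 941 CPM (0.62 ± 0.16, adjusted p = 0.0092). EPB41, a red cell membrane gene, fell by 0.59 ± 0.16 (adjusted p = 0.014) with groups not overlapping. Blood falls numbered 1 without any 1 low DHA library. Leaving out 1 low DHA library left 1 or 2 liver and 1 to 3 blood rises, leaving out medium replicate 1 left 3 of each, the 6 libraries fitted alone gave 2 liver and 1 blood rise, and 0 of these genes passed without medium replicate 2.

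cyp26a1, which degrades retinoic acid, had one of the largest falls and differed from most genes in the order of its libraries. It stood at 48.2, 36.8 and 43.9 CPM in low DHA and at 13.5, 21.6 and 17.9 CPM in medium DHA (-1.29 ± 0.31; adjusted p = 0.0079). Here medium replicate 1, not 2, was the lowest. Of 16 genes of retinoid metabolism 4 rose (25%, against 16.7% of all genes) and 1 fell (6.25%, against 10.4%), which was cyp26a1. The rises were led by rdh10, which makes retinal from retinol, at 0.53 ± 0.13. Retinoid rises numbered 1 or 2 without 1 low DHA library or without medium replicate 1, and no gene of the list passed without medium replicate 2.

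Growth and endocrine genes fell in 5 of 18 (27.8%, against 10.4% of all genes) and rose in 0, and 4 of the 5 encode receptors or nuclear receptors. Igf1r, the receptor of insulin-like growth factors, fell from 170, 180 and 178 to 101, 86.2 and 136 CPM (-0.70 ± 0.17; adjusted p = 0.0068). The thyroid hormone receptors thra and thrb fell by 0.80 ± 0.22 and 0.71 ± 0.20 and the glucocorticoid receptor nr3c1 by 0.53 ± 0.16. Clock genes fell in 4 of 19 (21.1%, against 10.4% of all genes): RORB, NPAS2, BMAL1 and Rora, at -0.35 to -0.63. Genes of fasting and fuel switching rose in 4 of 29 (13.8%) and fell in 3 (10.3%), shares near those of all genes. KLF15, a transcription factor active in fasting, fell from 65.2, 65.2 and 64.0 to 46.4, 36.4 and 42.6 CPM (-0.63 ± 0.17; adjusted p = 0.011). GADD45B, a stress-response gene, rose from 64.5, 62.8 and 67.8 to 111, 127 and 91.3 CPM (0.76 ± 0.18; adjusted p = 0.0078), and FBP1 of gluconeogenesis rose by 0.45 ± 0.12. Low and medium libraries did not overlap in any of the genes named here. The same held for 45.7% of all genes tested, and for 91.6% of rises and 96.3% of falls. Fasting falls numbered 1 without low replicate 2 or 3, and the 6 libraries alone gave 1 rise and 4 falls. Endocrine falls numbered 2 without low replicate 2 or 3. Clock falls numbered 0 without low replicate 2 or 3 and 1 without low or medium replicate 1, and none of these genes passed without medium replicate 2.

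**Figure D4:**
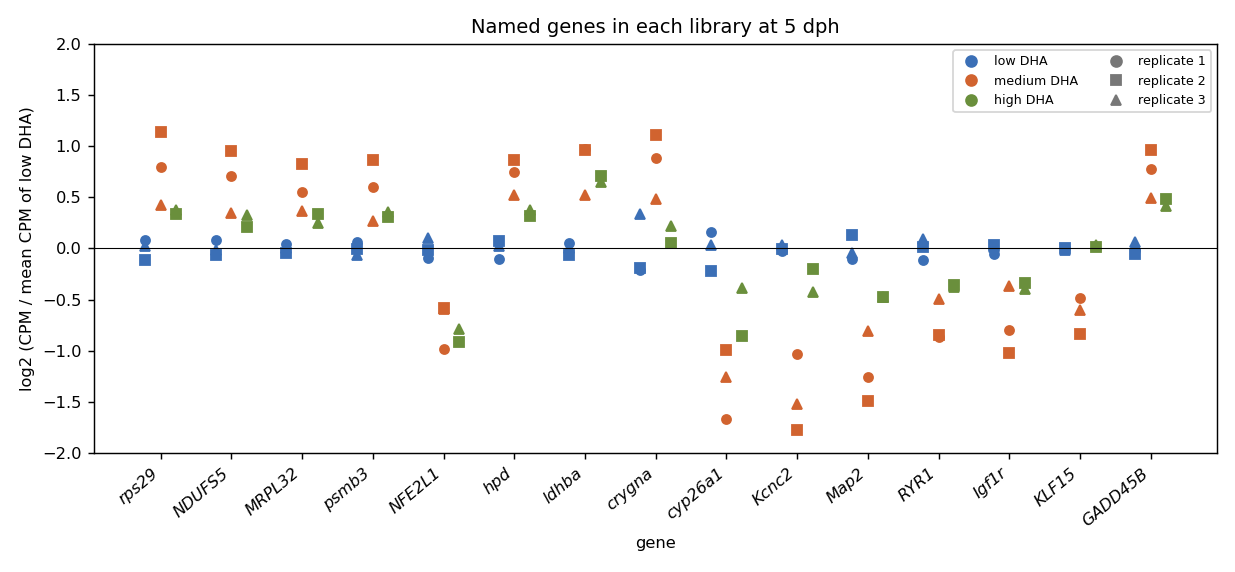
Level of 15 named genes in each library at 5 dph, as log2 of the CPM over the mean CPM of low DHA. Colours give the DHA level and shapes the replicate; low DHA libraries lie close to 0, medium libraries are spread, and high DHA lies between low and medium in most of the genes shown.

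Collagens and extracellular matrix genes fell in 8 of 70 (11.4%, near the 10.4% of all genes) and rose in 2 (2.86%, against 16.7%). COL13A1, a transmembrane collagen, fell from 11.7, 13.2 and 14.2 to 6.28, 5.36 and 7.56 CPM (-1.02 ± 0.24, adjusted p = 0.0068). LUM, lumican, rose by 0.82 ± 0.22. Bone and cartilage genes rose in 1 of 24 (4.17%, against 16.7% of all genes) and fell in 1 (4.17%, against 10.4%), with a median of 0.04. That fall was lost with the 6 libraries alone and without low replicate 2 or 3 or medium replicate 1. MATN1, a cartilage matrix protein, was the 1 that rose, at 1.55 ± 0.54 (adjusted p = 0.040). Its medium replicate 3 was far above the rest: 14.7, 29.3 and 97.0 CPM in medium against 14.4, 16.2 and 17.5 CPM in low DHA. Without that library the value was 0.45, and its call was also lost without any 1 of the low DHA libraries. Epidermis had 4 rises (13.8%, against 16.7% of all genes) and 2 falls (6.9%, against 10.4%) in 29, among them krt13, a keratin, at 0.39 ± 0.11 and Aloxe3, a skin barrier lipoxygenase, at -0.57 ± 0.15. Its rises numbered 1 without low replicate 2, 2 without low replicate 3 and 0 with the 6 libraries alone. Immune genes had 2 rises (7.41%) and 1 fall (3.7%) in 27, both shares below those of all genes. Cell cycle and DNA replication genes had 0 calls in 60 by edgeR or DESeq2, where 27.2% of all genes passed by edgeR. They had 3 rises and 1 fall at an unadjusted p under 0.05 and a median of 0.00225. Matrix falls numbered 2 without medium replicate 1 or low replicate 1 or 2, 3 without low replicate 3 and 23 without medium replicate 3, and without medium replicate 2 none of these lists had a call.

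High DHA was set beside both groups at 5 dph. These comparisons share libraries with medium versus low, so values are given only side by side. High with medium DHA gave 0 calls by edgeR (0% of genes), with 1417 at an unadjusted p under 0.05, and 232 calls by DESeq2. Without medium replicate 3 the edgeR count was 730. For high with low DHA 6 genes passed (0.0823%). rps29 was at 692 and 712 CPM in high DHA, NDUFS5 at 76.8 and 83.2, and Kcnc2 at 39.4 and 33.6 CPM, each nearer to the low than to the medium mean. NFE2L1, at 51.0 and 55.7 CPM, was within the medium range, and RORB, at 31.5 and 35.2 CPM, stood at the lower edge of its medium libraries of 34.1, 44.4 and 47.8 CPM. KLF15, at 65.6 and 66.4 CPM, was just above low DHA. Sterol synthesis genes had a median of 0.05 for medium minus low and 0.50 for high minus medium DHA.

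The same diets were compared at 10 dph in separate libraries, where 2546 genes passed (34.9%). The difference between medium and low DHA itself changed between the ages in 3154 genes (43.3%). Of the 1980 genes called at 5 dph, 832 were also called at 10 dph, which is 42% of the 5 dph calls and 32.7% of the 10 dph calls. In 786 of these (94.5%) the direction was opposite. Channel genes had a median of -0.44 at 5 dph and 0.85 at 10 dph, where 100 of 127 rose, against 24.3% of all genes. The difference between ages passed as lower at 5 dph in 100 of them, against 22.7% of all genes. Neuron genes went from -0.40 to 0.84, and lens genes from 0.62 to -0.63. Cell cycle genes, with 0 calls at 5 dph, fell in 35 of 60 at 10 dph, against 10.6% of all genes. The length score was -1.86, -2.76 and -2.10 in low DHA and -1.90, -2.02 and -1.71 in medium DHA at 10 dph, so the order of the group means was the reverse of that at 5 dph. Made without ribosomal protein genes it was -2.722, -3.791 and -3.191 in low and -2.321, -2.545 and -2.274 in medium DHA. On that version the groups did not overlap, again in the reverse order. The first version includes ribosomal rows nearly absent from these low DHA libraries. With the first version as a covariate the change between ages passed in 819 genes, and with the version without ribosomal genes in 0. The share of the length balance in the reversal was not tested beyond this.

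**Figure D5:**
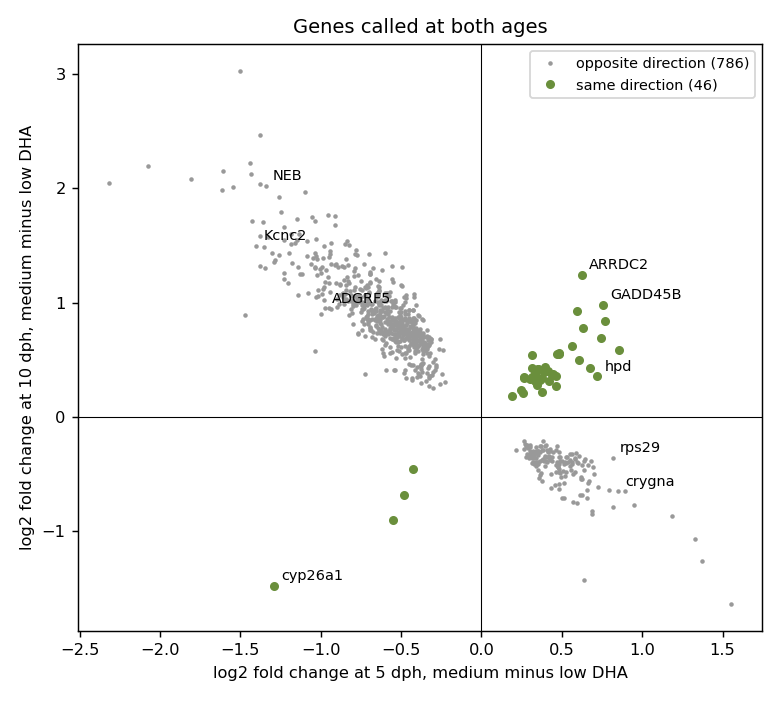
Log2 fold change, medium minus low DHA, at 5 dph (horizontal) against 10 dph (vertical) for the 832 genes called at both ages. Grey points are the 786 genes of opposite direction and green points the 46 of the same direction, with cyp26a1 lower and GADD45B and hpd higher in medium DHA at both ages.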

How the data were processed

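RNA of whole larvae was sequenced from TruSeq libraries, per the labels' protocols. The authors deposited raw counts per gene name. No source used here names the aligner, counting program or build. The submitters' processing notes name DESeq2 without a version. Counting without stated strand and rows that differ only in capitals (454 names, 916 rows) can split or share the reads of a gene. Groups came from the sample labels, and 4 internal control samples were not analysed here. Counts were fitted in R 4.3.3 with edgeR 4.0.16: filterByExpr, TMM scaling, 26 libraries in 9 groups, robust quasi-likelihood F-test, two-sided, Benjamini-Hochberg adjustment over 7292 genes, threshold 0.05. The common biological coefficient of variation was 11.9%. CPM use the scaled library size, principal components used log2 CPM with a prior count of 2, and SE comes from the F statistic. Counts of 12805866 to 18726093 per library limit low genes most.

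Members and gene lists were chosen with earlier results of these data known. Lists were matched by symbol or family name. Named genes were, among calls with a mean of at least 5 CPM in the 6 libraries and groups that did not overlap, the 12 largest rises and falls and the 5 smallest p in each direction. Up to 4 called members of each list were taken, or the 2 of smallest p where none passed. The change between ages added the 5 genes of smallest p on either side. GM1, RPL7AB, CHT1 and Gm525 are given by name alone, and some named genes are left unreported. Rows nearly absent from low DHA at 10 dph had there under 0.2 of the level in the other diets, fell to under 0.5 of it at 15 dph, and reached 0.3 CPM. Alternatives were the 6 libraries alone, DESeq2 1.42.0, other scalings and filters, summed names, the length score as a covariate, a replicate block and leaving out each library. A length or GC check from annotation is void, since 60.4% of names matched. Replicate numbers were not taken as pairs.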

Additional observations from a re-analysis of the deposited data

Results flagged for a closer look

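The difference between medium and low DHA was itself tested between 5 and 10 dph, in separate libraries, by edgeR's quasi-likelihood test over 7292 genes. It was larger at 5 than at 10 dph in 1498 genes and smaller in 1656. Of the 116 genes that the text names or that follow here, 89 passed this test, against 43.3% of all genes. These 116 include the genes chosen below by this same test. Most others were chosen as calls at 5 dph, of which 76.6% passed it, so the count follows from the choice.

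The genes with the smallest p on the higher side were rrp15, NFYB, NME1, MYL5 and Gm525. The difference at 5 dph minus that at 10 dph was 0.942 for rrp15 of ribosomal RNA processing and 0.699 for NFYB, a subunit of the CCAAT-binding factor. It was 1.23 for NME1, a nucleoside diphosphate kinase, 2.06 for MYL5, a myosin light chain, and 1.53 for Gm525. NME1 was higher in medium DHA at 5 dph, at 1822, 2213 and 1511 CPM against 1184, 1136 and 1171 CPM (log2 fold change 0.67 ± 0.13), and lower at 10 dph (-0.56 ± 0.13).

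On the lower side stood OIT3, Lurap1, NHLRC3, Dlgap2 and ADGRF5, at -1.72, -1.72, -1.96, -2.02 and -1.93. Dlgap2, a scaffold of the postsynaptic density, was at 67.9, 72.7 and 71.8 CPM in low and 42.2, 31.3 and 45.6 CPM in medium DHA at 5 dph (-0.83 ± 0.17), and was higher in medium DHA at 10 dph (1.19 ± 0.18). ADGRF5, an adhesion receptor, went from -0.97 ± 0.17 at 5 dph to 0.95 ± 0.16 at 10 dph. At 5 dph the 3 medium libraries of all 10 genes lay on the same side of the 3 low ones, as in 45.7% of all genes tested. The test that chose these 10 genes used the same libraries, which favours this.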

How the results depend on the processing

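The 1980 calls (1220 higher, 760 lower) became 854 (185 higher) with the 6 libraries fitted alone and 0 in both directions with the length score as covariate, made with or, in an alternative chosen after seeing the data, without ribosomal genes. The latter 2 left 819 and 0 changes between ages. Leaving out 1 library gave 0 to 2839 calls, 0 to 1641 higher and 0 to 1198 lower, with 0 without medium replicate 2 and 2839 without medium replicate 3; the change between ages numbered 2803 to 3546. The length difference ran from -1.18 to -0.609 and kept its direction. DESeq2, RLE and upper quartile scaling, no filter, 5 CPM and summed names gave 1879 to 2080 calls. The balance of directions moved with scaling: 988 higher and 891 lower under RLE, 1097 and 983 by DESeq2, and 1271 and 757 under upper quartile scaling. High with medium DHA gave 232 calls by DESeq2, and 0 to 730 with a medium library left out. Same-numbered libraries had correlations of 0.0625, -0.137 and 0.116, so numbers were not treated as pairs; a replicate block gave 2114 calls, 1149 (286 higher) with the 6 libraries alone, and 2 for high with medium DHA.

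No named gene turned direction when a library was left out, but 24, 37 and 34 of 116 lost their call without low replicate 1, 2 and 3, and 21, 114 and 5 without medium replicate 1, 2 and 3. FABP6 turned to -0.0288 with the length score. With the score made without ribosomal genes the values were -0.0891 for FABP6, -0.0308 for HGD, 0.0425 for ABCA4, 0.00304 for Abca1, 0.215 for CACNA1C, 0.108 for CHRM4, 0.183 for Elovl6 and 0.0815 for NEB. They were 0.0884 for PURG, 0.09 for Rora, 0.206 for SCN8A, 0.0968 for nr3c1, 0.161 for thra and 0.00736 for thrb. Summing names gave -0.0573 for elovl6. The cause was not tested. Rows of few counts are the least resolved at this depth.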

Other observations

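Among the 832 genes called at both ages, 46 differed in the same direction at 5 and 10 dph; the genes given here were chosen after their values were seen, and 0 of them passed at 5 dph without medium replicate 2. ARRDC2, an arrestin-domain gene, was at 346, 397 and 389 CPM in low and 614, 643 and 488 CPM in medium DHA at 5 dph (log2 fold change 0.63 ± 0.23), and at 1.25 ± 0.24 at 10 dph. ddit4, an inhibitor of the growth kinase mTORC1, was at 114, 120.2 and 120 CPM in low and 181, 232 and 123.4 CPM in medium DHA (0.60 ± 0.22), and at 0.93 ± 0.23 at 10 dph. XBP1, a transcription factor of the unfolded protein response, was at 0.47 ± 0.14 and 0.36 ± 0.14. GADD45B was at 0.76 ± 0.18 and 0.98 ± 0.19.

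RIOK2 and PWP1, which act in ribosome assembly, were at 0.47 ± 0.10 and 0.38 ± 0.08 at 5 dph and at 0.27 ± 0.10 and 0.22 ± 0.08 at 10 dph. Chaf1b, a chromatin assembly factor, and WDHD1, a replication protein, were lower in medium DHA at both ages: -0.48 ± 0.15 and -0.55 ± 0.18 at 5 dph, -0.68 ± 0.15 and -0.90 ± 0.18 at 10 dph. cyp26a1 was lower by 1.29 ± 0.31 at 5 dph and by 1.48 ± 0.30 at 10 dph, where its mean was 202 CPM in low and 72.6 CPM in medium DHA.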
